A study of Mus musculus with 18 samples.

Results

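The p53 targets and DNA damage response genes described here are 33 mouse genes chosen by name, and each name matched 1 row of the table of 52550 genes, so all 33 have a value in every library, 0 included. They were grouped by 11 roles. The samples are oocytes, cumulus cells (the somatic cells around the oocyte in its follicle) and blastocysts (embryos just before implantation) of C57BL/6 mice. Each tissue came from a group exposed to PM2.5, fine particulate matter in air, and from controls in filtered air. Each of the 6 groups has 3 libraries, 18 in all, and no genotype other than the strain is given. The sources used here do not give age, dose, length of exposure, the number of cells per library or whether replicates came from different mice. A p-value below thus reflects the spread among the libraries of a group, which may be technical in part.

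p53, encoded by Trp53, is a transcription factor that is held at a low level by the ubiquitin ligase Mdm2 and is released when the kinases Atm and Atr, through Chek2 and Chek1, report damaged DNA. It then turns on genes that stop the cell cycle, start apoptosis or feed back on itself, Mdm2 among them. Breaks are marked by the histone variant H2afx and repaired by homologous recombination or by end joining, while Parp1 and Parp2 answer strand breaks and the nucleotide excision genes answer bulky or ultraviolet lesions. In the mouse ovary, oocytes rest in a long arrest of meiosis, and Chek2 and p53 family members are known to decide whether a damaged oocyte survives. Blastocysts divide fast, and cumulus cells leave the cell cycle around ovulation.

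Values are the deposited log2(x + 1), where x is a normalized count, and are called log2 values below. The sequencing depth behind them is not known, and x may carry a scaling by transcript length, so each gene is compared between libraries and never with another gene. Libraries of 1 group correlated across genes at 0.978 to 0.987, and 16426 to 17987 genes were above 0 in a library. Most markers of each tissue were present. Among those low or at 0 in their own tissue were Amh, Fshr and Wt1 in cumulus cells, Figla in oocytes, and Krt7, Hand1 and Pdgfra in blastocysts. The granulosa marker Cyp19a1 had a higher mean in filtered-air oocytes than in cumulus cells (3.88 and 1.61), and Kitl was about equal (1.68 and 1.77). The samples are bulk libraries, so fewer cells of a type and less RNA per cell cannot be told apart.

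Promoter windows from RefSeq on GRCm38.p6, running from 250 bases before to 50 bases after a gene's start, were matched for 25 of the 33 genes, with 31 windows. Trp53inp1, Pmaip1, Rad50, Nbn, H2afx, Prkdc, Xpc and Ddb2 had no entry. Each window was searched for the p53 half-site, a pattern of 10 letters that is its own reverse complement, so 1 search covers both strands. It was found in 2745 of all 32851 windows (8.36%) and in 7 of the 31 windows of these genes (22.6%). Those 7 windows belong to 7 of the 25 genes: Trp53, Mdm2, Cdkn1a, Ccng1, Sesn1, Gadd45a and Polk. A match is a description of letters and not a binding site. The windows of 4 p53 target genes are shown because these genes all hold the half-site and between them had their highest levels in all 3 tissues, Cdkn1a and Gadd45a in cumulus cells, Ccng1 in blastocysts and Mdm2 in oocytes; the half-site is in capitals and each line runs 5′ to 3′ on the gene's strand.
Cdkn1a: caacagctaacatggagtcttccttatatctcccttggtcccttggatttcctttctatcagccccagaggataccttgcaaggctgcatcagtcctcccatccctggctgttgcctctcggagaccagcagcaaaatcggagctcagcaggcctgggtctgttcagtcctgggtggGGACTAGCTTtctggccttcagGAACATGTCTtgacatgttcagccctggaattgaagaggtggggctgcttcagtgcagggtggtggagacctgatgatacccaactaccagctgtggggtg
Gadd45a: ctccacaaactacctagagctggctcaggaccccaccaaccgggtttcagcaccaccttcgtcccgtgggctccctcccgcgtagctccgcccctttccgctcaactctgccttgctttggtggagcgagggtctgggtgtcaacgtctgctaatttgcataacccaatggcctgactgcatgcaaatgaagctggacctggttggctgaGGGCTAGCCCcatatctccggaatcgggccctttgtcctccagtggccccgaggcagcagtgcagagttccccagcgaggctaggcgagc
Ccng1: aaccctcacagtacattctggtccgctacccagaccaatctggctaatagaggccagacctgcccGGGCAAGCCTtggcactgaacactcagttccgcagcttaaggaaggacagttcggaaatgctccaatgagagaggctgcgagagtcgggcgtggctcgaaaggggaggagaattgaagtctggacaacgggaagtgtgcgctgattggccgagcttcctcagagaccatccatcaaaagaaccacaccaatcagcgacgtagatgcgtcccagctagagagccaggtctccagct
Mdm2: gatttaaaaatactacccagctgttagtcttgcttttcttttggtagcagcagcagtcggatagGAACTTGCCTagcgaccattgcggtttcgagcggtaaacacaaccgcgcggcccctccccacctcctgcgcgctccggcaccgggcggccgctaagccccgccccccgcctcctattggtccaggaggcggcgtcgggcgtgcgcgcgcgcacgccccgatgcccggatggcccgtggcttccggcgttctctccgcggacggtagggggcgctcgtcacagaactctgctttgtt
The Cdkn1a window (chr17:29090729-29091028, plus strand) belongs to the upstream of 2 annotated starts and holds 2 half-sites, whose first bases lie 73 and 51 bases before the start. In the Gadd45a window (chr6:67037358-67037657, minus strand) the half-site begins 40 bases before the start. It begins 185 bases before the start of Ccng1 (chr11:40755237-40755536, minus strand) and 186 before that of Mdm2 (chr10:117710709-117711008, minus strand).

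These genes differed mainly between tissues, as did tested genes at large. By the tests below, 42.5% to 73.7% of all genes tested at a minimum mean of 3 were called between tissues. Between exposure groups the shares were 0% to 0.221%. In filtered air, 15 of the 33 had their highest mean in oocytes, 4 in cumulus cells and 14 in blastocysts. For 11, 3 and 12 of them, every library of the highest tissue was above every library of the other tissues, and 9, 3 and 10 of those also stood so in the PM2.5 libraries. Of the 30 genes with a mean of at least 1 in some tissue, which leaves out Atm, Atr and Prkdc, the separated counts were also 11, 3 and 12. Over all 14174 genes with such a mean, 28.4% were highest without overlap in oocytes, 19.9% in cumulus cells and 25.8% in blastocysts. The genes separated in oocytes were Mdm2, Trp53inp1, Chek1, Rad50, Trp53bp1, Brca1, Brca2, Lig4, Ddb2, Xpc and Polk. Those separated in cumulus cells were Cdkn1a, Gadd45a and Gadd45b. In blastocysts they were Ccng1, Pmaip1, Sesn2, Gadd45g, Chek2, H2afx, Mdc1, Rpa1, Xrcc5, Xrcc6, Parp1 and Parp2. In the PM2.5 libraries Xpc and Polk were no longer separated in oocytes, nor Mdc1 and Rpa1 in blastocysts.

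**Figure D1:**
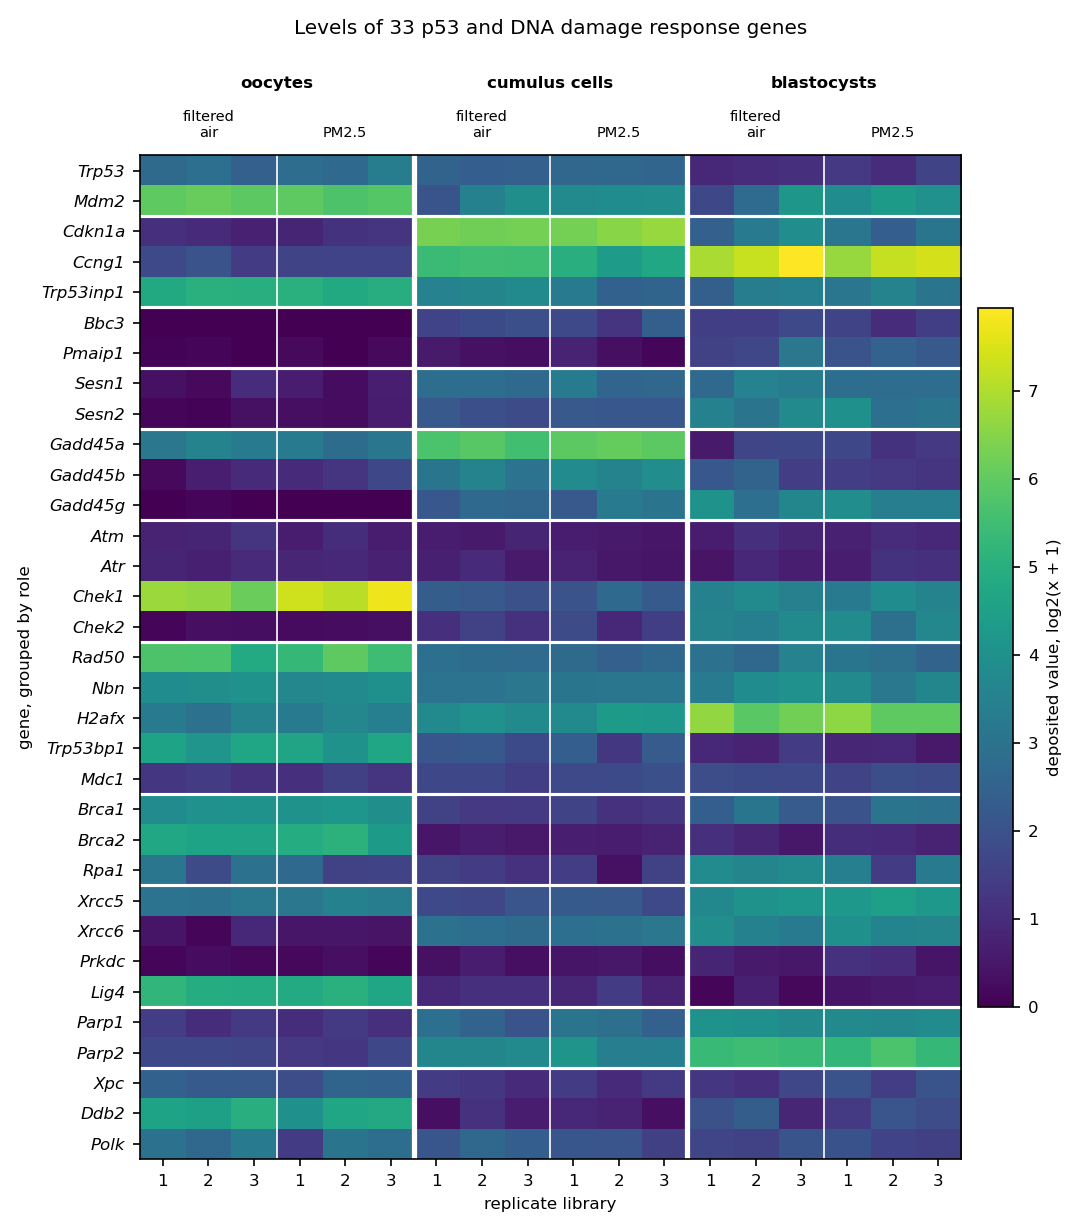
Log2 values of the 33 genes (rows, grouped by role) in the 18 libraries (columns, by tissue, exposure and replicate), with color from 0 to the highest value. Blocks of color change between tissues far more than between the exposure groups of a tissue, as for Chek1 (6.11 to 7.75 in oocytes, 1.98 to 2.71 in cumulus cells).

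The tests between tissues used the filtered-air libraries, with a call at an adjusted p (limma, Benjamini-Hochberg over all tested genes) under 0.05 and a difference of at least 1 on the log2 scale. With a minimum mean of 3, 9 of 11 tested members were called between oocytes and cumulus cells (6 higher and 3 lower in oocytes), beside 71% of all tested genes. Between oocytes and blastocysts the count was 10 of 12 (6 higher, 4 lower), beside 73.7%, and between cumulus cells and blastocysts 7 of 12 (2 higher, 5 lower in cumulus cells), beside 42.5%. Since that minimum left out 21 or 22 members, the tests below use the lower minimum mean of 1, with 27, 29 and 28 members tested. Called were 12 higher and 10 lower in oocytes than in cumulus cells, beside 31.2% and 41.9% of all tested genes, and 12 higher and 13 lower in oocytes than in blastocysts, beside 31.4% and 43.8%. In cumulus cells 5 were higher and 12 lower than in blastocysts, beside 21.8% and 24.1%. A member that passed the minimum only through the tissue where it is high had to differ, so these counts are a description. The same holds for the p-values of such members given below. Those low in oocytes were Cdkn1a, Pmaip1, Sesn1, Sesn2, Gadd45b, Gadd45g, Chek2 and Xrcc6. Pmaip1, Brca2 and Ddb2 were such members in comparisons with cumulus cells as the low tissue, and Trp53, Brca2 and Lig4 with blastocysts. Over all 33 genes, 17 means were higher and 16 lower in oocytes than in cumulus cells, 16 and 17 than in blastocysts, and 11 and 22 in cumulus cells than in blastocysts.

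Quantile normalization moved the median difference over all genes tested at this minimum from -0.44 to -0.04 (oocytes minus cumulus cells), from -0.55 to -0.12 (oocytes minus blastocysts) and from -0.15 to -0.08 (cumulus cells minus blastocysts). With it, 21 of the 22, 24 of the 25 and 15 of the 17 calls were kept in the same direction. In the PM2.5 libraries in place of the filtered-air ones, 21, 22 and 15 were kept. Calls lost under either were Parp1 and Rpa1 (oocytes against cumulus cells), Rpa1, Gadd45b and Polk (oocytes against blastocysts), and Gadd45g, Trp53bp1 and Parp1 (cumulus cells against blastocysts). Both settings were chosen after seeing the data.

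**Figure D2:**
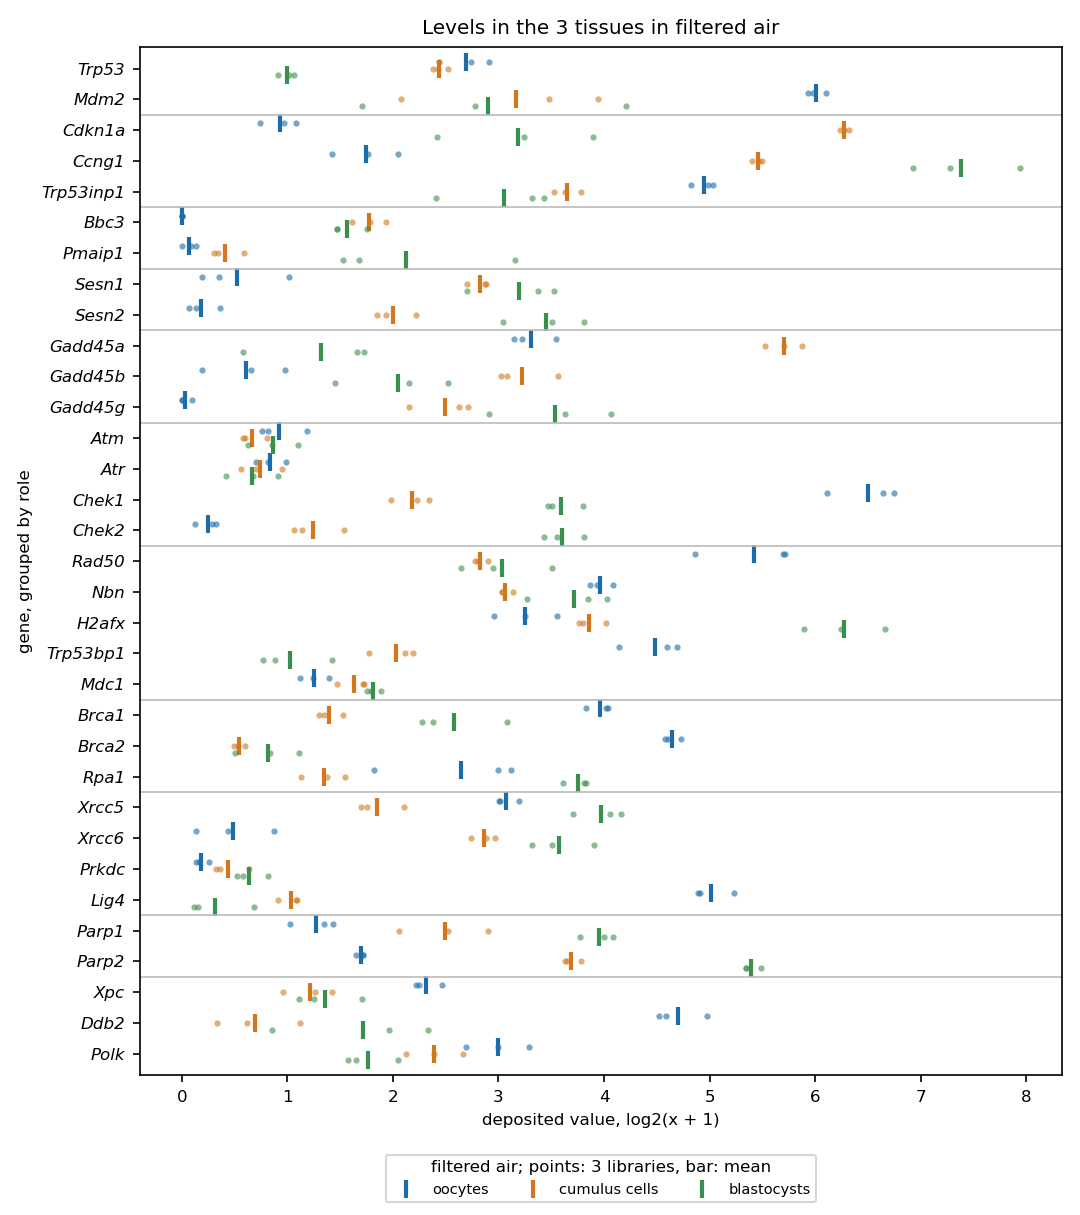
Log2 values in filtered air for the 33 genes (rows, grouped by role), with 3 library points and a bar for the mean in oocytes, cumulus cells and blastocysts. Oocytes stand apart on the high side for Mdm2, Chek1, Brca2, Lig4 and Ddb2, cumulus cells for Cdkn1a and Gadd45a, and blastocysts for Ccng1, H2afx and Parp2.

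Trp53 itself was lowest in blastocysts, and its inhibitor Mdm2 was highest in oocytes. Trp53 stood at 2.74, 2.91 and 2.44 in oocytes, 2.52, 2.38 and 2.42 in cumulus cells and 0.91, 1.01 and 1.06 in blastocysts. Oocytes and cumulus cells overlapped, and every blastocyst library was below both. Oocytes minus blastocysts was 1.70 (SE 0.17, adjusted p = 3.94e-05) and cumulus cells minus blastocysts 1.45 (SE 0.16, adjusted p = 0.000121), while oocytes minus cumulus cells was 0.25 (SE 0.15, adjusted p = 0.158). A pseudogene, Trp53-ps, is annotated, and reads shared with it would make the Trp53 values uncertain. Mdm2 stood at 5.98, 6.11 and 5.93 in oocytes, 2.07, 3.48 and 3.94 in cumulus cells and 1.71, 2.78 and 4.20 in blastocysts. The oocyte libraries lay close together and above all others, whereas cumulus cells and blastocysts were spread widely and overlapped. The oocyte difference was 2.84 (SE 0.44, adjusted p = 0.000576) against cumulus cells and 3.11 (SE 0.55, adjusted p = 0.00108) against blastocysts.

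Among the targets that stop the cell cycle or feed back on p53, each had another tissue as its highest. Cdkn1a, the cyclin-dependent kinase inhibitor p21, stood at 1.08, 0.97 and 0.74 in oocytes, 6.32, 6.23 and 6.28 in cumulus cells and 2.42, 3.24 and 3.90 in blastocysts. No tissues overlapped, with cumulus cells highest, then blastocysts, then oocytes. The differences were -5.35 (SE 0.13, adjusted p = 5.92e-08) for oocytes minus cumulus cells, -2.26 (SE 0.35, adjusted p = 0.000528) for oocytes minus blastocysts and 3.09 (SE 0.33, adjusted p = 9.6e-05) for cumulus cells minus blastocysts. Ccng1, a cyclin that acts in feedback on p53 and Mdm2, stood at 1.77, 2.05 and 1.43 in oocytes, 5.40, 5.49 and 5.47 in cumulus cells and 6.93, 7.27 and 7.94 in blastocysts. Again no tissues overlapped, but the order was blastocysts, cumulus cells, oocytes. Oocytes minus blastocysts was -5.63 (SE 0.28, adjusted p = 8.94e-07), oocytes minus cumulus cells -3.71 (SE 0.17, adjusted p = 7.65e-07) and cumulus cells minus blastocysts -1.93 (SE 0.24, adjusted p = 0.00022). Trp53inp1, a nuclear protein that promotes p53 activity and autophagy, was highest in oocytes (4.83, 5.03 and 4.98), by 1.30 (SE 0.12, adjusted p = 3.15e-05) over cumulus cells and 1.89 (SE 0.27, adjusted p = 0.000318) over blastocysts.

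The apoptosis effectors and the sestrins were low or at 0 in oocytes. Bbc3, the BH3-only protein PUMA, was listed at 0 in all 6 oocyte libraries, filtered air and PM2.5 alike. In filtered air it stood at 1.61, 1.78 and 1.93 in cumulus cells and 1.47, 1.47 and 1.76 in blastocysts, which overlapped and differed by 0.21 (SE 0.18, adjusted p = 0.342). Pmaip1, the BH3-only protein NOXA, stood at 0.08, 0.13 and 0 in oocytes, 0.59, 0.34 and 0.30 in cumulus cells and 1.53, 1.68 and 3.16 in blastocysts. Blastocysts were above the other tissues in every library, with cumulus cells minus blastocysts at -1.71 (SE 0.41, adjusted p = 0.0071) and oocytes minus blastocysts at -2.05 (SE 0.41, adjusted p = 0.00201). Sesn1 and Sesn2 encode stress proteins that restrain mTORC1. Sesn2 stood at 0.13, 0.07 and 0.36 in oocytes, 2.22, 1.94 and 1.85 in cumulus cells and 3.51, 3.05 and 3.81 in blastocysts. Its tissues did not overlap, and oocytes were lower than blastocysts by a difference of -3.27 (SE 0.22, adjusted p = 4.22e-06) and than cumulus cells by one of -1.82 (SE 0.15, adjusted p = 1.6e-05). Sesn1 stood at 0.35, 0.19 and 1.01 in oocytes, 2.88, 2.87 and 2.71 in cumulus cells and 2.70, 3.52 and 3.37 in blastocysts. Oocytes were again below both other tissues, at -2.30 (SE 0.23, adjusted p = 4.17e-05) minus cumulus cells and -2.68 (SE 0.30, adjusted p = 7.04e-05) minus blastocysts, and the other tissues overlapped (-0.38, SE 0.24, adjusted p = 0.191).

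The GADD45 genes encode small stress sensors that bind p21, PCNA and the kinase MTK1, and they were split between cumulus cells and blastocysts. Gadd45a, the p53-induced member, stood at 3.15, 3.55 and 3.23 in oocytes, 5.70, 5.88 and 5.53 in cumulus cells and 0.58, 1.66 and 1.72 in blastocysts. No tissues overlapped, and cumulus cells exceeded blastocysts by 4.38 (SE 0.31, adjusted p = 9.98e-06), while oocytes lay below cumulus cells (-2.40, SE 0.15, adjusted p = 4.07e-06) and above blastocysts (1.98, SE 0.32, adjusted p = 0.000615). Gadd45g was at 0 in 5 of the 6 oocyte libraries. In filtered air it stood at 0, 0.10 and 0 in oocytes, 2.15, 2.71 and 2.63 in cumulus cells and 4.06, 2.91 and 3.63 in blastocysts, so that blastocysts were above cumulus cells in every library and cumulus cells above oocytes. The blastocyst difference from cumulus cells, -1.04 (SE 0.31, adjusted p = 0.0184), no longer reached the size of 1 with quantile normalization or with median centring, where it was -0.79. Gadd45b was highest in cumulus cells (3.08, 3.56 and 3.03), with oocytes at 0.19, 0.65 and 0.98 and a difference of -2.62 (SE 0.24, adjusted p = 3.08e-05).

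The checkpoint kinases were opposed. Chek1, the kinase downstream of Atr, stood at 6.75, 6.64 and 6.11 in oocytes, 2.34, 2.23 and 1.98 in cumulus cells and 3.51, 3.80 and 3.47 in blastocysts. No tissues overlapped, and oocytes exceeded cumulus cells by 4.32 (SE 0.20, adjusted p = 6.98e-07) and blastocysts by 2.91 (SE 0.20, adjusted p = 4.66e-06). Chek2, the kinase downstream of Atm, stood at 0.12, 0.32 and 0.29 in oocytes, 1.06, 1.54 and 1.14 in cumulus cells and 3.56, 3.43 and 3.81 in blastocysts. Here blastocysts were highest and oocytes lowest, again with no overlap, at -3.36 (SE 0.16, adjusted p = 7.7e-07) for oocytes minus blastocysts and -2.35 (SE 0.20, adjusted p = 2.86e-05) for cumulus cells minus blastocysts. Atm and Atr lay between 0.42 and 1.19 in every library of every group, under the minimum mean of 1 in each comparison, and their filtered-air tissues overlapped.

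Of the genes that sense and mark double-strand breaks, Trp53bp1, Rad50 and Nbn had their highest mean in oocytes, Nbn with overlap. H2afx and Mdc1 had theirs in blastocysts. Trp53bp1 (53BP1), which directs breaks toward end joining, stood at 4.60, 4.15 and 4.69 in oocytes, 2.12, 2.19 and 1.78 in cumulus cells and 0.88, 0.77 and 1.42 in blastocysts. Oocytes were above the rest, by 2.45 (SE 0.19, adjusted p = 1.14e-05) over cumulus cells and 3.45 (SE 0.23, adjusted p = 4.1e-06) over blastocysts. H2afx, the histone variant phosphorylated around breaks, stood at 3.25, 2.96 and 3.55 in oocytes, 3.80, 4.02 and 3.76 in cumulus cells and 6.67, 5.90 and 6.25 in blastocysts. Blastocysts were above all other libraries, with oocytes minus blastocysts at -3.02 (SE 0.24, adjusted p = 9.88e-06) and cumulus cells minus blastocysts at -2.41 (SE 0.20, adjusted p = 2.63e-05). The MRN complex holds Rad50 and Nbn. Rad50 was higher in oocytes (5.71, 5.69 and 4.86) than in cumulus cells by 2.59 (SE 0.24, adjusted p = 2.83e-05), and Nbn by 0.89 (SE 0.12, adjusted p = 0.0002), under the size of 1 that a call needed. Mdc1, the scaffold that binds phosphorylated H2afx, spanned only 1.12 to 1.89 in filtered air.

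In homologous recombination the oocyte carried the highest levels of Brca1 and Brca2. Brca2, a breast cancer susceptibility gene that acts in this repair, stood at 4.73, 4.61 and 4.58 in oocytes, 0.49, 0.60 and 0.53 in cumulus cells and 1.11, 0.84 and 0.51 in blastocysts. Oocytes were above all other libraries, by 4.10 (SE 0.12, adjusted p = 1.04e-07) over cumulus cells and 3.82 (SE 0.19, adjusted p = 7.7e-07) over blastocysts. Brca1, which promotes end resection and works with Brca2, stood at 3.83, 4.01 and 4.04 in oocytes, 1.53, 1.30 and 1.35 in cumulus cells and 2.38, 3.08 and 2.27 in blastocysts. No tissues overlapped, with oocytes first, blastocysts next and cumulus cells last, and oocytes exceeded cumulus cells by 2.57 (SE 0.13, adjusted p = 1.2e-06) and blastocysts by 1.38 (SE 0.23, adjusted p = 0.000757). Rpa1, the large subunit of the complex that coats single-stranded DNA, was highest in blastocysts (3.83, 3.61 and 3.81), and cumulus cells minus blastocysts was -2.40 (SE 0.18, adjusted p = 1.45e-05).

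Of the 4 genes of end joining, Lig4 had its highest mean in oocytes and Xrcc5, Xrcc6 and Prkdc in blastocysts, Prkdc with overlap. Lig4, the ligase that seals the ends, stood at 5.23, 4.91 and 4.89 in oocytes, 0.91, 1.09 and 1.09 in cumulus cells and 0.11, 0.68 and 0.16 in blastocysts. Oocytes were above all other libraries, by 3.98 (SE 0.14, adjusted p = 2.36e-07) over cumulus cells and 4.69 (SE 0.21, adjusted p = 4.5e-07) over blastocysts. Xrcc6 (Ku70) and Xrcc5 (Ku80) form the ring that binds the ends. Xrcc6 stood at 0.44, 0.14 and 0.87 in oocytes, 2.97, 2.88 and 2.74 in cumulus cells and 3.90, 3.50 and 3.31 in blastocysts. Oocytes were lowest, at -2.38 (SE 0.20, adjusted p = 1.86e-05) minus cumulus cells and -3.09 (SE 0.24, adjusted p = 9.77e-06) minus blastocysts. For Xrcc5 the oocyte difference from cumulus cells had the opposite sign, at 1.22 (SE 0.15, adjusted p = 0.00017), with oocytes at 3.02, 3.01 and 3.20 and cumulus cells at 1.76, 1.70 and 2.10. Blastocysts were above both, at 3.71, 4.05 and 4.16, with oocytes minus blastocysts at -0.90 (SE 0.17, adjusted p = 0.00129), under the size of 1. Prkdc, the DNA-dependent kinase that Ku recruits, stayed at 0.14 to 0.82 in filtered air and was not tested.

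Both PARP enzymes followed the order blastocysts, cumulus cells, oocytes, with no overlap. Parp2 stood at 1.72, 1.71 and 1.65 in oocytes, 3.63, 3.65 and 3.78 in cumulus cells and 5.34, 5.49 and 5.34 in blastocysts, and oocytes minus blastocysts was -3.70 (SE 0.13, adjusted p = 1.62e-07). Parp1 stood at 1.43, 1.03 and 1.34 in oocytes, 2.90, 2.52 and 2.05 in cumulus cells and 4.09, 4.0 and 3.78 in blastocysts, and oocytes minus blastocysts was -2.69 (SE 0.17, adjusted p = 3.21e-06). These enzymes add poly(ADP-ribose) at strand breaks. Of the genes for lesion recognition and bypass, Ddb2, the damaged-DNA binding protein of nucleotide excision repair, stood at 4.59, 4.52 and 4.98 in oocytes, 0.33, 1.12 and 0.61 in cumulus cells and 1.96, 2.33 and 0.85 in blastocysts. Oocytes were above all other libraries, by 4.01 (SE 0.23, adjusted p = 2.38e-06) over cumulus cells and 2.98 (SE 0.37, adjusted p = 0.000134) over blastocysts. Polk, a translesion polymerase, stood at 3.0, 2.69 and 3.29 in oocytes, 2.12, 2.67 and 2.39 in cumulus cells and 1.65, 1.58 and 2.05 in blastocysts. Its oocyte libraries were all higher than the others, by 1.23 (SE 0.21, adjusted p = 0.000951) over blastocysts and 0.60 (SE 0.21, adjusted p = 0.0287) over cumulus cells, the latter under the size of 1. The margin over cumulus cells was small (2.69 against 2.67), and in the PM2.5 libraries Polk overlapped between these tissues. Xpc, which recognizes distorted DNA, was higher in oocytes (2.46, 2.25 and 2.22) than in cumulus cells by 1.10 (SE 0.16, adjusted p = 0.000446).

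Transcripts of the oocyte were also found in cumulus libraries, and their part in the values above was not tested. The mean x of Gdf9 in filtered-air cumulus cells was 0.442% of that in oocytes, that of Bmp15 0.367% and that of Zp3 0.335%. The same share was 1.9% for Brca2, 2.6% for Ddb2, 3.33% for Lig4, 3.91% for Chek1 and 11.2% for Brca1. Blood cell markers were also present in cumulus libraries. In filtered air, x summed over 10 leukocyte markers was 91.9 to 134 in cumulus cells, with Cd3e at 0. It was 0.423 to 2.07 in oocytes and 0.850 to 2.04 in blastocysts. The 5 erythrocyte markers summed to 1.93 to 894 in cumulus cells. The part of these cells in the values above was not tested. Reads of overlapping genes are a further limit, since the strand of counting is not given: the spans of 10 of the 33 genes overlap another gene in RefSeq, 5 of them a protein-coding one (Atr, Trp53bp1, Rpa1, Xrcc6 and Ddb2).

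Between PM2.5 and filtered air, none of the 33 genes passed the adjusted threshold in any tissue with limma at either minimum mean, and Ccng1, Trp53inp1 and Cdkn1a passed in cumulus cells under alternative settings given below. With a minimum mean of 3, 0 of 13 tested members were called in oocytes, 0 of 9 in cumulus cells and 0 of 16 in blastocysts, beside 0.221%, 0.167% and 0% of all tested genes. With a minimum mean of 1, 0 of 22, 0 of 27 and 0 of 27 were called, beside 0.197%, 0.0763% and 0.0199%. At an unadjusted p under 0.05 the counts at the minimum mean of 3 were 1 in oocytes (Chek1), 3 in cumulus cells (Ccng1, Trp53inp1 and Gadd45b) and 1 in blastocysts (Mdm2). Over all tested genes the counts at that unadjusted p were 340 of 4080, 1114 of 4780 and 191 of 4834. Over all 33 genes the median difference was close to 0 in each tissue, with 15 higher and 17 lower in exposed oocytes, 18 and 15 in cumulus cells and 17 and 16 in blastocysts. The ranges were -0.69 to 0.91, -0.88 to 0.69 and -1.05 to 1.17. In oocytes 1 of the 33 genes had no overlap between the groups, in cumulus cells 8 and in blastocysts 3, where of all genes tested at the minimum mean of 3 the shares without overlap were 15.3%, 26.3% and 8.52%. The counts in cumulus cells and in blastocysts are near those shares.

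**Figure D3:**
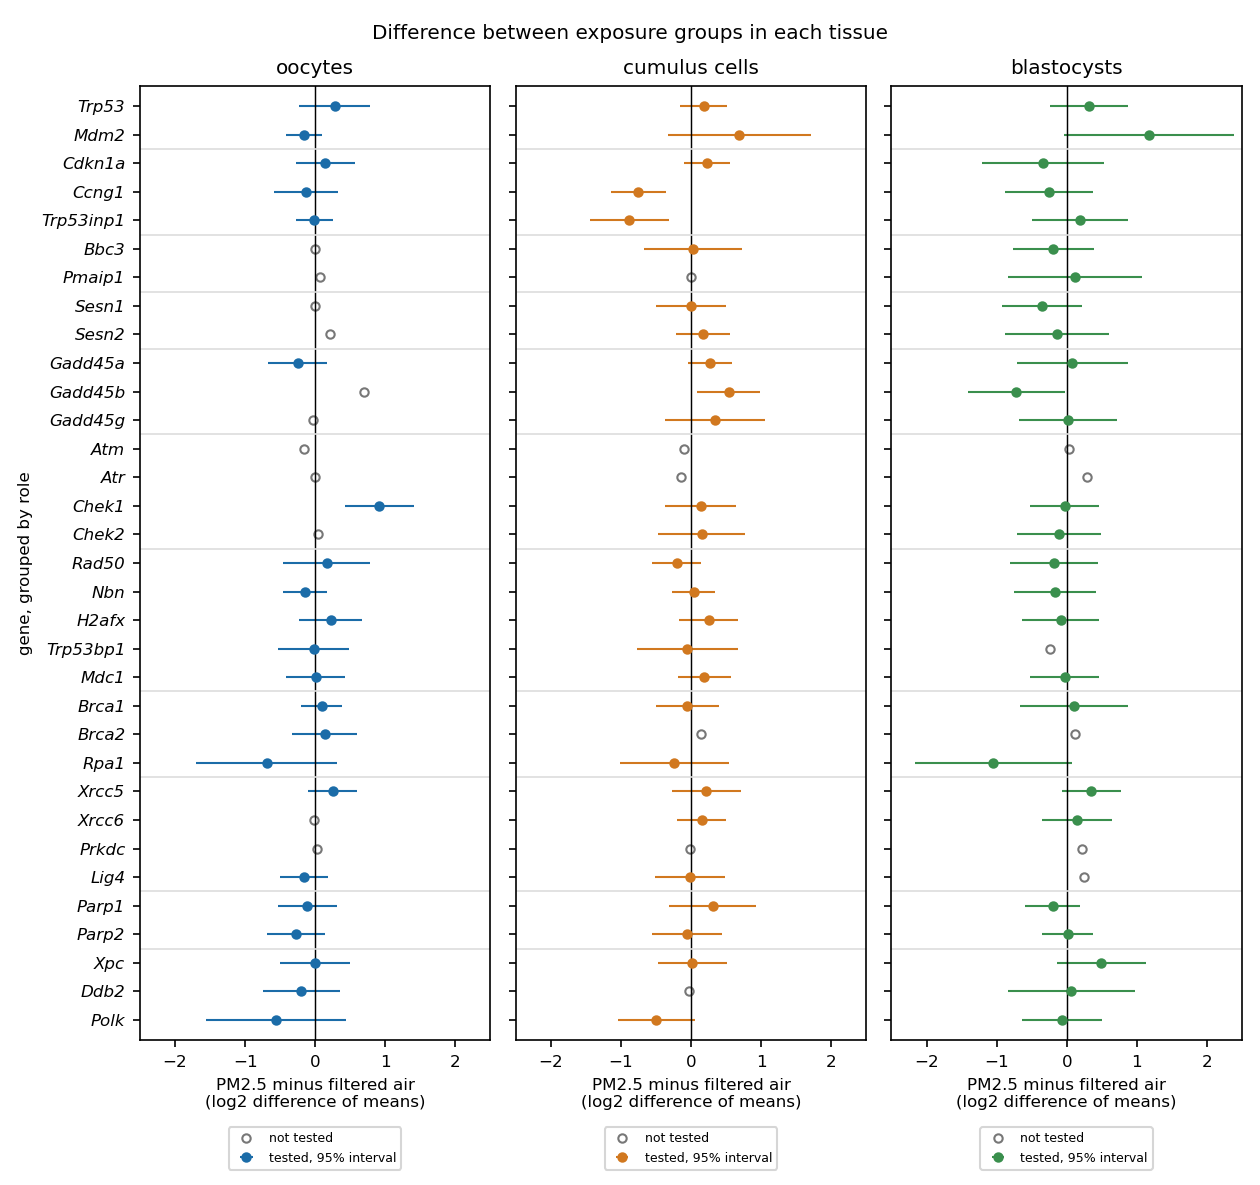
Differences of mean log2 values, PM2.5 minus filtered air, for the 33 genes (rows, grouped by role) in each tissue. Filled points carry the 95% interval of the limma fit with a minimum mean of 1, and open points were not tested. Most intervals cross 0, and the ones that do not are Chek1 in oocytes (0.42 to 1.40), Ccng1 (-1.14 to -0.36), Trp53inp1 (-1.44 to -0.32) and Gadd45b in cumulus cells, and Gadd45b in blastocysts, all before adjustment.

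In oocytes the checkpoint kinase Chek1 had the smallest p. The gene lies at chr9:36708482-36726658 on GRCm38.p6. Its log2 values were 7.36, 7.13 and 7.75 in the exposed libraries (replicates 1, 2 and 3 in order, here and below) and 6.75, 6.64 and 6.11 in the controls. Every exposed library was above every control library, and this was the only one of the 13 tested members without overlap, where 15.3% of all tested genes had none. The difference was 0.91 (SE 0.21, adjusted p = 0.306). The adjusted p ranged from 0.085 to 0.653 over the alternative settings and did not pass in any. Xrcc5 and Mdm2 had the next smallest p at the minimum mean of 3. Xrcc5 stood at 3.15, 3.48 and 3.34 against 3.02, 3.01 and 3.20, a difference of 0.25 (SE 0.15, adjusted p = 0.682). Mdm2 stood at 5.97, 5.71 and 5.86 against 5.98, 6.11 and 5.93, a difference of -0.16 (SE 0.11, adjusted p = 0.717). Both overlapped between groups. For Cdkn1a the oocyte difference was 0.14, with a 95% interval of -0.28 to 0.57, and for Trp53 0.28, with an interval of -0.23 to 0.78. Bbc3 was listed at 0 in all libraries of both groups.

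In cumulus cells, 2 feedback targets of p53 had the smallest p and pointed down, while Gadd45b pointed up. Ccng1 (chr11:40748552-40755309) stood at 4.97, 4.40 and 4.75 in exposed libraries against 5.40, 5.49 and 5.47 in controls. Trp53inp1 (chr4:11156441-11174379) stood at 3.29, 2.45 and 2.55 against 3.52, 3.63 and 3.78. For both, every exposed library was below every control library. The Ccng1 difference was -0.75 (SE 0.17, adjusted p = 0.176) and that of Trp53inp1 -0.88 (SE 0.24, adjusted p = 0.18). Without PM2.5 replicate 1 the adjusted p was 0.0388 for Ccng1 (difference -0.88) and 0.032 for Trp53inp1 (-1.14), and with library weights 0.00536 for each (-0.98 and -1.11), where the count over all genes also rose from 8 to 558 and 2236. Gadd45b stood at 3.84, 3.55 and 3.90 against 3.08, 3.56 and 3.03. The groups overlapped by a small margin, and the difference was 0.54 (SE 0.19, adjusted p = 0.187). With library weights it was 0.19.

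Gadd45a was higher in every exposed cumulus library as well, at 5.94, 6.05 and 5.94 against 5.70, 5.88 and 5.53, a difference of 0.27 (SE 0.13, adjusted p = 0.246). With Ccng1 and Trp53inp1 it made 3 of 9 tested members without overlap, beside 26.3% of all tested genes, a share near the background. Cdkn1a stood at 6.28, 6.54 and 6.71 against 6.32, 6.23 and 6.28, with a difference of 0.23 (SE 0.14, adjusted p = 0.318). It passed only with library weights, at an adjusted p of 0.0222, a setting that called 2236 of 4780 tested genes. Mdm2 stood at 3.80, 3.85 and 3.91 against 2.07, 3.48 and 3.94, and filtered-air replicate 1 was the low one. Trp53, tested only at the minimum mean of 1 and not called, stood at 2.62, 2.66 and 2.58 against 2.52, 2.38 and 2.42. Every exposed cumulus library was above every control library for Trp53.

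Sums of 4 marker lists, that of granulosa and cumulus cells among them, also separated the exposure groups of cumulus cells. Their part in these differences was not tested. Of all genes tested in cumulus cells at the minimum mean of 3, 58.7% had a higher mean in exposed libraries. Summed over the 8 stroma and smooth muscle markers, x was 5.66 to 6.75 in exposed and 3.39 to 4.25 in control libraries, with 4 of 8 higher without overlap and Lum at 0. Over the 6 oviduct epithelium markers the sums were 1.72 to 4.12 and 0.69 to 1.43, with 1 of 6 higher without overlap and Foxj1 at 0. The 12 granulosa and cumulus markers summed to 825 to 975 and 685 to 806, of which 1 was higher without overlap. The 9 trophectoderm markers summed to 58.3 to 81.2 and 46.2 to 56.7, with 1 of 9 higher without overlap and Cdx2, Krt7, Eomes, Elf5 and Hand1 at 0. The sums of the 10 oocyte markers (34.1 to 68.5 and 28.9 to 42.3, Figla at 0) overlapped. So did those of the 10 leukocyte markers (88 to 186 and 91.9 to 134, Cd3e at 0) and the 5 erythrocyte markers (1.99 to 669 and 1.93 to 894). In these 3 lists, 9 of 10 oocyte, 7 of 10 leukocyte and 0 of 5 erythrocyte markers had a higher mean in exposed libraries.

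In blastocysts the smallest p at the minimum mean of 3 belonged to Mdm2 (chr10:117688875-117710758), and at the minimum mean of 1 to Gadd45b. Mdm2 stood at 3.85, 4.34 and 4.02 in exposed libraries against 1.71, 2.78 and 4.20 in controls. The exposed libraries were close together, while the control libraries were spread so widely that the highest of them lay between exposed ones. The difference was 1.17 (SE 0.51, adjusted p = 0.998). Leaving out filtered-air replicate 1 gave 0.58, and leaving out replicate 3 of the controls gave 1.83. Rpa1 stood at 3.44, 1.37 and 3.30 against 3.83, 3.61 and 3.81, lower in every exposed library. Its difference of -1.05 (SE 0.47, adjusted p = 0.998) became -0.38 without PM2.5 replicate 2, the low library. Xrcc5 stood at 4.24, 4.50 and 4.24 against 3.71, 4.05 and 4.16, higher in every exposed library by 0.35 (SE 0.19, adjusted p = 0.998). Rpa1 and Xrcc5 were 2 of 16 tested members without overlap, beside 8.52% of all tested genes. Gadd45b, under the minimum mean of 3, was lower in every exposed library, at 1.44, 1.33 and 1.21 against 2.16, 2.53 and 1.45. The margin was small, with the highest exposed library at 1.443 and the lowest control at 1.450. Its difference of -0.72 was not called at the minimum mean of 1. The 95% intervals of the apoptosis effectors were -0.77 to 0.39 for Bbc3 and -0.84 to 1.07 for Pmaip1. The erythrocyte markers summed to 0 to 0.0876 in exposed and 0.109 to 1.09 in control blastocysts, without overlap, and the other marker sums overlapped; their part in these values was not tested.

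**Figure D4:**
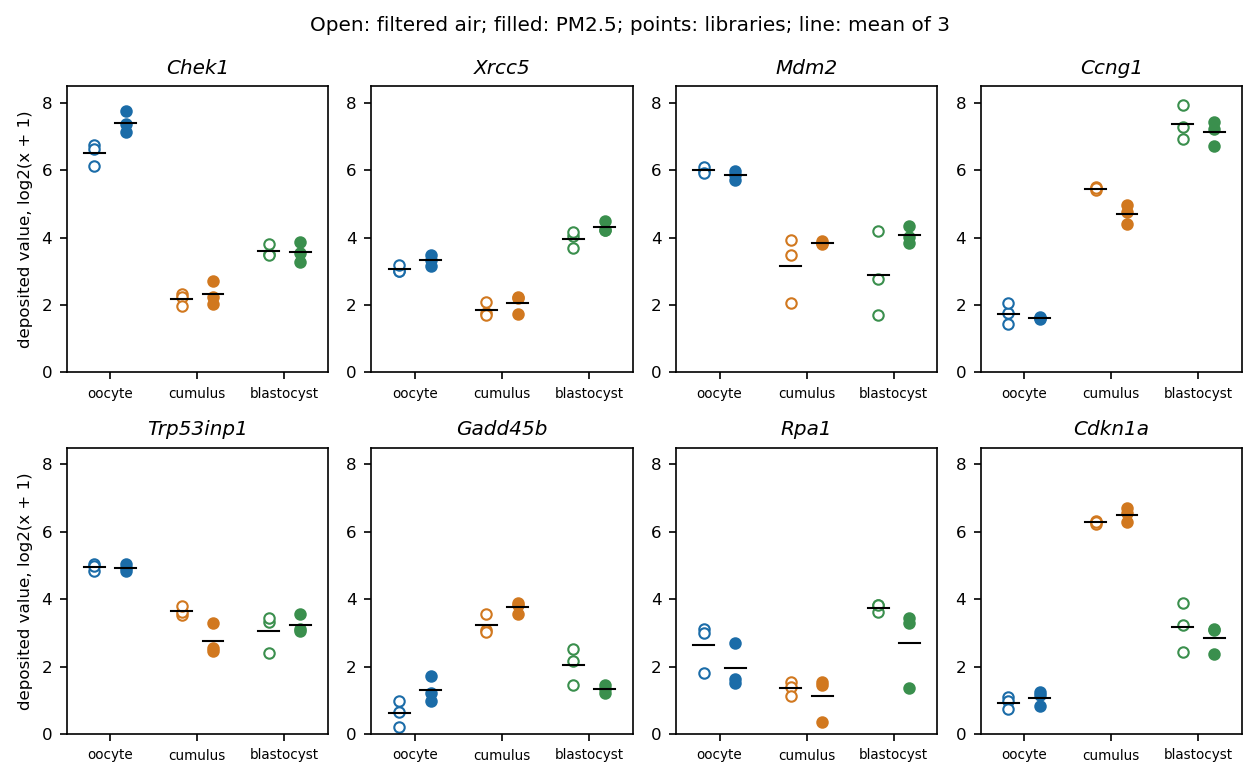
Log2 values of 8 genes in the 18 libraries, by tissue, with open points for filtered air, filled points for PM2.5 and a line for the mean of 3. The genes are Cdkn1a and those with the smallest p in each tissue. Chek1 in oocytes, Ccng1 and Trp53inp1 in cumulus cells, and Rpa1, Xrcc5 and, by a small margin, Gadd45b in blastocysts separate by exposure. Of all genes tested at the minimum mean of 3, 15.3%, 26.3% and 8.52% separated in these tissues. Mdm2 in blastocysts shows 3 close exposed libraries (3.85 to 4.34) beside 3 scattered controls (1.71 to 4.20).

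The response to exposure was compared between tissues as a difference of differences over all 18 libraries. No member was called among 5 tested for oocytes against cumulus cells, 6 for oocytes against blastocysts and 7 for cumulus cells against blastocysts, beside 0.395%, 0% and 0.259% of all tested genes. With a minimum mean of 1, 0 of 20, 0 of 19 and 0 of 25 were called, beside 0.241%, 0.0335% and 0.171%. At an unadjusted p under 0.05 there was 1 member in each pair at the minimum mean of 3, beside 309 of 2027, 136 of 2054 and 590 of 3479 of all tested genes. Trp53inp1 had an exposure difference of -0.01 in oocytes, -0.88 in cumulus cells and 0.19 in blastocysts. Its difference of differences was 0.87 (SE 0.35, adjusted p = 0.241) for oocytes minus cumulus cells and -1.07 (SE 0.35, adjusted p = 0.209) for cumulus cells minus blastocysts. With library weights Trp53inp1 was called in both, at 1.10 (adjusted p = 0.00552) and -1.08 (adjusted p = 0.0114), and Ccng1 for cumulus cells minus blastocysts at -0.79 (adjusted p = 0.0414). That setting called 336 of 2027 tested genes for oocytes minus cumulus cells and 721 of 3479 for cumulus cells minus blastocysts. Without cumulus PM2.5 replicate 1, Trp53inp1 was called for cumulus cells minus blastocysts at -1.33 (adjusted p = 0.0417), beside 90 of 3465 tested genes. Chek1 gave 0.95 (SE 0.31, adjusted p = 0.470) for oocytes minus blastocysts. Gadd45b, tested only at the lower minimum, gave 1.26 (SE 0.38, adjusted p = 0.185) for cumulus cells minus blastocysts, from 0.54 and -0.72.

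The wider pathway was read from 147 other genes in 10 lists. None was called between PM2.5 and filtered air, of 53 tested in oocytes, 25 in cumulus cells and 44 in blastocysts at the minimum mean of 3, or of 91, 101 and 119 at the minimum mean of 1. At the minimum mean of 1, an unadjusted p under 0.05 was reached by 5, 10 and 3 of them, beside 635 of 8612, 1747 of 10487 and 434 of 10044 of all tested genes, a larger share in each tissue. At the minimum mean of 3 the counts were 4, 5 and 0, and the genes named next had the smallest p there. In oocytes it was Ube2b, a ubiquitin-conjugating enzyme that acts with Rad18 on PCNA, at 4.37 ± 0.06 (mean ± SD, n = 3) against 4.80 ± 0.07, a difference of -0.43 (SE 0.10, adjusted p = 0.330). In cumulus cells it was Btg2, an antiproliferative p53 target, at 6.38 ± 0.14 against 5.77 ± 0.18, a difference of 0.61 (SE 0.14, adjusted p = 0.176). In blastocysts it was Babam1, a subunit of the Brca1-A complex, at 2.96 ± 0.13 against 3.40 ± 0.31, a difference of -0.44 (SE 0.23, adjusted p = 0.998).

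Between tissues in filtered air, the calls at the minimum mean of 1 were counted in the same way. Of all the pathway genes, 51 were called higher and 27 lower of 110 in oocytes against cumulus cells, 35 and 41 of 116 in oocytes against blastocysts, and 7 and 45 of 114 in cumulus cells against blastocysts. The shares of all tested genes called higher and lower were 31.2% and 41.9%, 31.4% and 43.8%, and 21.8% and 24.1% in these comparisons, and the counts of each list below are to be read beside them. In the homologous recombination list, 11 were called higher and 1 lower of 16 in oocytes against cumulus cells, 7 and 4 of 19 in oocytes against blastocysts, and 0 and 10 of 15 in cumulus cells against blastocysts. Brip1, the helicase partner of Brca1, stood at 4.54 ± 0.02 in oocytes, 0.46 ± 0.02 in cumulus cells and 1.07 ± 0.13 in blastocysts, and the nuclease Dna2 at 3.36 ± 0.02, 0.16 ± 0.08 and 1.43 ± 0.31 in that order, used for all genes below. In the Fanconi anemia list, 5 were called higher and 1 lower of 9 in oocytes against cumulus cells, 3 and 3 of 11 in oocytes against blastocysts, and 0 and 7 of 11 in cumulus cells against blastocysts. Its E2 enzyme Ube2t stood at 6.82 ± 0.11, 1.47 ± 0.05 and 2.78 ± 0.09, and Fancb at 3.62 ± 0.26, 0.75 ± 0.23 and 2.41 ± 0.34.

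For the other p53 targets, 4 were called higher and 5 lower of 15 in oocytes against cumulus cells, 2 and 10 of 15 in oocytes against blastocysts, and 3 and 9 of 20 in cumulus cells against blastocysts. Phlda3, which restrains Akt, stood at 0.02 ± 0.03, 3.19 ± 0.10 and 6.76 ± 0.36, and the apoptosis effector Perp at 1.42 ± 0.34, 1.05 ± 0.19 and 7.29 ± 0.30. Among the p53 regulators and relatives, 4 were called higher and 2 lower of 9 in oocytes against cumulus cells, 5 and 1 of 8 in oocytes against blastocysts, and 0 and 0 of 8 in cumulus cells against blastocysts. Mdm4, the partner of Mdm2 in p53 control, stood at 5.58 ± 0.09, 1.38 ± 0.57 and 2.32 ± 0.18, and the phosphatase Ppm1d, which shuts the response down, at 4.95 ± 0.21, 2.87 ± 0.27 and 2.28 ± 0.64. In checkpoint signalling, 8 were called higher and 4 lower of 13 in oocytes against cumulus cells, 5 and 4 of 13 in oocytes against blastocysts, and 0 and 5 of 11 in cumulus cells against blastocysts. A pair of phosphatases that the checkpoint kinases restrain had their highest means in different tissues, Cdc25a at 4.74 ± 0.13, 0.99 ± 0.50 and 0.51 ± 0.17 and Cdc25c at 0.09 ± 0.15, 3.01 ± 0.26 and 5.56 ± 0.16.

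In break sensing and ubiquitin signalling, 6 were called higher and 4 lower of 12 in oocytes against cumulus cells, 4 and 4 of 12 in oocytes against blastocysts, and 1 and 1 of 12 in cumulus cells against blastocysts. Its widest ranges were those of Rif1, an effector of 53BP1, at 7.05 ± 0.13, 2.96 ± 0.26 and 2.91 ± 0.20, and of the ubiquitin ligase Rnf168, at 5.19 ± 0.21, 2.05 ± 0.04 and 1.35 ± 0.85. In non-homologous end joining, 3 were called higher and 0 lower of 5 in oocytes against cumulus cells, 2 and 1 of 6 in oocytes against blastocysts, and 1 and 0 of 6 in cumulus cells against blastocysts. The polymerase Polm stood at 4.27 ± 0.04, 1.10 ± 0.28 and 1.55 ± 0.39 and the Lig4 partner Xrcc4 at 3.84 ± 0.14, 2.65 ± 0.29 and 1.55 ± 0.40. In nucleotide excision repair, 3 were called higher and 6 lower of 15 in oocytes against cumulus cells, 1 and 8 of 14 in oocytes against blastocysts, and 1 and 6 of 15 in cumulus cells against blastocysts. Uvssa, of transcription-coupled repair, stood at 3.44 ± 0.21, 0.89 ± 0.19 and 0.11 ± 0.09 and the TFIIH subunit Gtf2h4 at 0.35 ± 0.28, 2.63 ± 0.10 and 3.21 ± 0.20. Among translesion synthesis genes, 5 were called higher and 2 lower of 10 in oocytes against cumulus cells, 4 and 2 of 11 in oocytes against blastocysts, and 1 and 2 of 10 in cumulus cells against blastocysts. Rev1 stood at 4.89 ± 0.16, 2.18 ± 0.09 and 2.85 ± 0.19 and Rev3l at 3.33 ± 0.08, 1.68 ± 0.41 and 0.69 ± 0.21. For single-strand break repair and RPA, 2 were called higher and 2 lower of 7 in oocytes against cumulus cells, 2 and 4 of 8 in oocytes against blastocysts, and 0 and 5 of 7 in cumulus cells against blastocysts. The RPA subunit Rpa2 stood at 0.63 ± 0.32, 2.06 ± 0.11 and 4.14 ± 0.10 and the DNA end-processing enzyme Tdp1 at 3.22 ± 0.04, 0.56 ± 0.14 and 1.12 ± 0.15.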

How the data were processed

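RNA was measured in 18 libraries of mouse oocytes, cumulus cells and blastocysts, 3 per tissue and exposure group. Per the labels' protocols, cells were lysed directly, first-strand cDNA was tailed and amplified, and paired-end reads were sequenced. FastQC, Cuffnorm and DESeq 1.22.1 are named, with the build mm10 and no role or order, per the submitters' processing notes. The sources used here do not give the aligner, the annotation or the strand of counting. The deposited table holds log2(x + 1) of a normalized count x for 52550 genes, per the file headers and its values, so the sequencing depth is unknown, no counting interval can be given and no count test was run. No column of another sample was present (0).

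Groups came from the labels. Genes with a mean log2 value of at least 3 and a value above 0 in at least 3 fitted libraries were tested with limma 3.58.1 in R 4.3.3 (moderated linear model with a mean-variance trend, Benjamini-Hochberg over all tested genes, threshold 0.05). Fold changes are differences of log2(x + 1), and those of low genes are understated by the added 1. Tissue comparisons used filtered-air libraries and also required a difference of at least 1. Tests of exposure by tissue used all 18 libraries. The fit was tested on simulated data. Alternatives were a minimum mean of 1, no minimum, log2(x + 0.1), quantile normalization, median centring, no trend, library weights, a replicate block, leaving out each library, all 18 libraries in the exposure fits, and the PM2.5 libraries in the tissue fits.

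The members and the pathway and marker lists were chosen with earlier results of these data known. In each exposure comparison, values per library are given for the 3 tested members with the smallest p, and in tissue comparisons for up to 2 members per role with the largest range of tissue means. Of the other pathway genes, the 1 with the smallest p per tissue and up to 2 per list with the largest range are named. Other genes named here were chosen after their values were seen. Gene names, promoter windows and gene spans came from RefSeq on GRCm38.p6.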

Additional observations from a re-analysis of the deposited data

How the results depend on the processing

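Over the alternatives, named genes kept their direction and side of the threshold in 527 of the recomputed values, passed it only under the alternative in 4, missed it in 9 and changed sign in 3. The 3 were all Mdm2 in cumulus cells minus blastocysts (0.27, not called): -0.22 with PM2.5 libraries at either minimum mean, and -0.33 without blastocyst filtered-air replicate 1 (range -0.33 to 0.81 leaving out each library). The count over all genes in the oocyte exposure comparison, 9, was 17 with a minimum mean of 1, 20 with library weights, 27 with all 18 libraries and 2 to 12 leaving out each library. In cumulus cells it was 8, and 5 with no minimum, 2236 with library weights, 103 with all 18 libraries and 6 to 558 leaving out each library, the highest without PM2.5 replicate 1. In blastocysts it was 0, and 2 with a minimum mean of 1, 1 with no minimum, 2 with all 18 libraries and 0 to 4 leaving out each library. Members called in cumulus cells, 0 of 9 tested, became 3 with library weights, where 2236 of 4780 tested genes were called. Leaving out each library gave 0 to 2 members, beside 6 to 558 of all genes. Tissue counts of members rose as more were tested: oocytes minus cumulus cells 22 with a minimum mean of 1 and 24 with none, oocytes minus blastocysts 25 and 26, cumulus cells minus blastocysts 17 and 17. With a minimum mean of 1 and PM2.5 libraries they were 21, 23 and 16, and with quantile normalization 23, 25 and 16, both chosen after seeing the data. Over all genes, cumulus cells minus blastocysts had 709 called higher and 1192 lower, and 894 and 888 with median centring. Members called in the test of exposure by tissue, 0, became 1 (oocytes minus cumulus cells) and 2 (cumulus cells minus blastocysts) with library weights, and 0 to 1 in the latter leaving out each library. With library weights the counts over all genes in these 2 comparisons were 336 of 2027 and 721 of 3479. Causes were not tested. Whether the replicate numbers pair the libraries is not known, and correlations between groups of 3 libraries are too few to decide it. Same-numbered libraries correlated in their deviations as follows: oocytes -0.0919 to -0.0693, cumulus cells -0.244 to -0.161, blastocysts -0.0254 to 0.183. With the replicate block, 3 genes were called in oocytes and 3 in cumulus cells, and no member. Depth is unknown, so the limit it sets on low genes such as Atm, Atr and Prkdc cannot be given.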
